A study of Mus musculus with 6 samples.

Results

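Cardiac fibroblasts and cardiac endothelial cells of sham operated hearts were compared on 3 of the 6 Affymetrix mouse arrays of the study. The 3 arrays hold fibroblasts traced by Tie2-Cre, fibroblasts not traced by it, and endothelial cells, with 1 array each. All were sorted from the left ventricle of adult male Black Swiss mice aged 8 to 10 weeks, of which 3 had the sham operation and 3 had transverse aortic constriction (TAC), a narrowing of the aorta that loads the ventricle with pressure. Cells were isolated 1 week after surgery, and labelling started from 200 ng of total RNA. Tie2-Cre expresses Cre recombinase from the promoter of Tek, the gene of an endothelial receptor, so traced fibroblasts are those in which that promoter is or was active, or whose ancestors had it active. The same promoter is known to be active in some blood cells, which limits tracing as a mark of endothelial descent. The reporter allele, the surface markers of the sort, the genotype of the mice that gave endothelial cells and whether RNA of the 3 mice was pooled are all items not given in the labels. They also do not say whether the 3 arrays share hearts.

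Fibroblasts build and turn over the collagen-rich matrix of the heart wall and are in contact with myocytes, vessels and nerves. They are known to carry the platelet-derived growth factor receptor Pdgfra and the transcription factor Tcf21. Endothelial cells line the vessels, are held together by the junction proteins Pecam1 and Cdh5, and in the heart are mostly those of capillaries, which pass fatty acids from blood lipoproteins to the myocytes. The receptors a cell carries set which signals it can read, its channels set how it handles ions, its transcription factors keep its identity, and its secreted proteins act on neighbours.

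All levels are log2 of the deposited probe set intensity. Wherever 3 levels are listed for a gene, the first is that of traced fibroblasts, the second that of untraced fibroblasts and the last that of endothelial cells. A difference is the fibroblast level minus the endothelial level, given as the mean of both fibroblast populations unless stated otherwise. Levels of different genes are not set against each other, because probe sets differ in how brightly they light up for the same amount of RNA. A lower value of a gene can mean fewer cells of the kind that makes it or less RNA in each cell, and the arrays cannot tell these apart.

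Each group has 1 array and so no replicate error of its own, and no test was run on the sham arrays alone. The only spread at hand is that between the fibroblast arrays. Across 11825 detected genes the traced minus untraced difference had a standard deviation of 0.29, and the fibroblast minus endothelial difference 1.60. The 0.29 is not an error of the cell type difference. Both fibroblast differences use the 1 endothelial array, so an error of that array enters both alike and is not in the 0.29. A gene counts as detected when at least 1 of the 3 arrays shows it brighter than that array's median probe set, and as higher in a cell type when both fibroblast populations differ from the endothelial array at least 4-fold in that direction. By this rule 1077 detected genes (9.11%) were higher in fibroblasts and 522 (4.41%) were higher in endothelial cells. Genes that are detected only through the cell type in which they are bright had to differ, so counts within a gene list are descriptions, to be read against those shares. The median difference over all detected genes was 0.30 in favour of fibroblasts.

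The arrays were alike in their overall scale, with medians between 111.4 and 114.7 intensity units, and 0 of 15 pairs among the 6 arrays held identical values. Hybridization spike controls averaged 11.75 on the untraced fibroblast array, slightly more on the traced one and 12.88 on the endothelial array, so a technical measure stood higher on the endothelial array too. Its part in the differences was not tested. The housekeeping genes Gapdh and Actb differed by 0.04 and -0.42.

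The fibroblast arrays carried fibroblast markers and the endothelial array carried endothelial markers. Pdgfra stood at 12.56, 12.56 and 7.63, and Tcf21 stood at 12.95, 12.91 and 6.52. The junction gene Pecam1 stood at 7.98, 7.96 and 13.55, and Cdh5 stood at 7.72, 8.10 and 14.11. For each of these genes the fibroblast arrays lay within 0.38 of each other and at least 4.93 from the endothelial array. Of 20 fibroblast markers, all detected, 18 lay on the fibroblast side and 0 on the endothelial side, with a median difference of 4.96. The others were Lamc1, a laminin chain (1.40), and the intermediate filament gene Vim, which stood at 13.89, 13.94 and 13.65 and so was nearly level. Of 25 endothelial markers 22 were higher in endothelial cells, with a median of -5.57.

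Tek, Eng and Plvap were the endothelial markers that did not fall on the endothelial side. Tek stood at 11.76, 11.91 and 12.63, a difference of only -0.80, so the transcript of the tracing promoter was bright on all 3 arrays, in untraced as in traced fibroblasts. Eng, a TGF-beta co-receptor, stood at 11.99, 11.78 and 13.62. Plvap, which forms the diaphragms of fenestrated endothelium and is listed here also as endocardial, ran the other way at 8.85, 8.91 and 6.12.

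**Figure D1:**
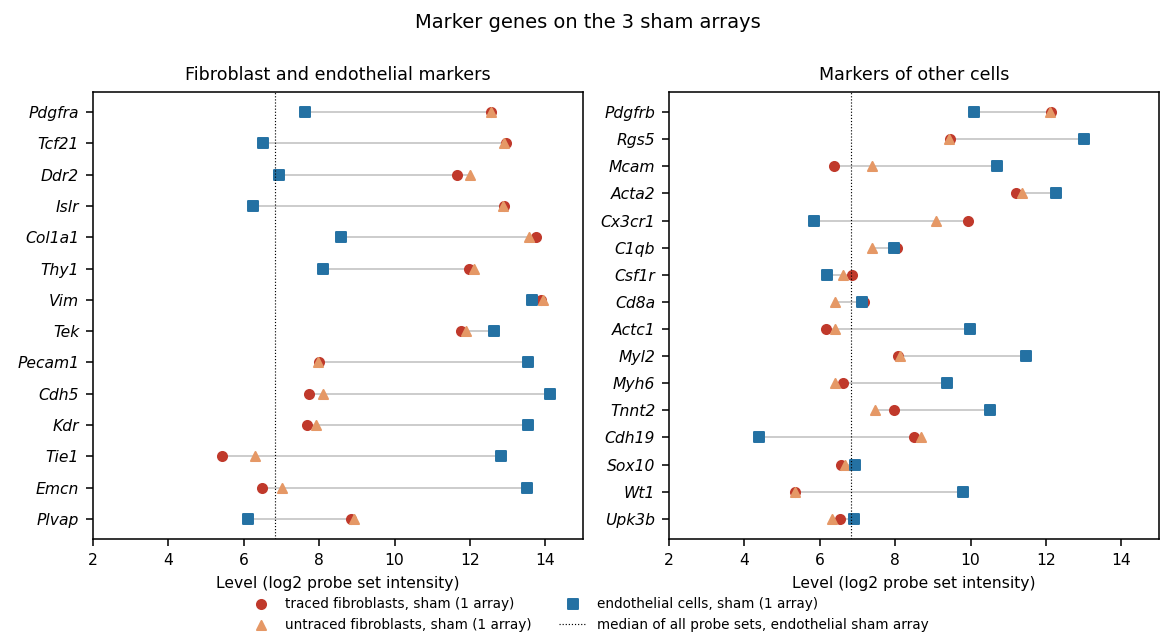
Log2 probe set intensity of marker genes on the 3 sham arrays (1 point per array: circles traced fibroblasts, triangles untraced fibroblasts, squares endothelial cells), with the median of all probe sets of the endothelial array as a dotted line. Fibroblast and endothelial markers fall on opposite sides in the left panel, with Vim and Tek bright on all 3 arrays, and cardiomyocyte genes such as Actc1 stand highest on the endothelial array in the right panel.

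Transcripts of other cells were also present, and several moved with cell type. Of 12 cardiomyocyte markers 9 were detected, and all 9 were higher on the endothelial array, with a median difference of -2.86, against 1 after TAC. Actc1, cardiac actin, stood at 6.17, 6.40 and 10.00, and Myl2, the ventricular myosin light chain, at 8.08, 8.13 and 11.47. The summed intensity of the 12 markers was 1827 and 1644 on the fibroblast arrays and 13508 on the endothelial array, although Ryr2 (5.76, 5.19 and 5.49) and Nppa (5.46, 5.82 and 5.64) stayed under the array medians. Mural markers, those of pericytes and smooth muscle, summed to 13627, 14630 and 24508. Among 13 detected mural genes 10 were in neither group, and the median difference of the list was -0.58. Rgs5 (difference -3.56) and Mcam (6.39, 7.40 and 10.71), both listed here as mural, were higher in endothelial cells. The receptor Pdgfrb (12.12, 12.10 and 10.10) was higher in fibroblasts. The part of myocyte and mural RNA in other endothelial differences was not tested.

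Some macrophage markers were measured. They summed to 2827, 1939 and 1589, and 6, 8 and 11 of 14 lay at or below the array median, with Adgre1, Mrc1 and Ptprc below the array medians on all 3 arrays, and the fractalkine receptor gene Cx3cr1 (9.94, 9.09 and 5.84) was the only 1 of 8 detected that differed 4-fold. At least 8 of 9 lymphocyte markers lay at or below the array median on every sham array. Cdh19, a cadherin of the Schwann cell list, stood at 8.50, 8.69 and 4.39 while the defining Schwann factor Sox10 was level at 6.57, 6.66 and 6.95. In the epicardial list Tbx18 (8.77, 8.86 and 3.66) and Aldh1a2 (9.84, 10.32 and 5.78) lay on the fibroblast side, Wt1 (5.35, 5.34 and 9.79) on the endothelial side, and the mesothelial genes Upk3b, Msln and Krt19 showed no 4-fold difference. Lymphatic genes were split in the same way: Pdpn (11.55, 11.63 and 6.41) was a fibroblast gene here, Flt4 (7.27, 6.96 and 12.72) an endothelial one, and the defining lymphatic factor Prox1 was below the array median throughout. Among 11 detected arterial genes 6 lay on the endothelial side and 0 on the other, and among 6 venous genes 3 and 1.

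The genes with the largest differences were ranked by the smaller of their differences in the fibroblast populations. On the fibroblast side Scara5, a scavenger receptor, stood at 12.84, 13.01 and 4.83, a mean difference of 273-fold. Efemp1, a fibulin of microfibrils, stood at 12.30, 11.94 and 3.98, or 282-fold, and the matricellular gene Smoc2 at 13.15, 13.35 and 5.77, or 178-fold. On the endothelial array they sat at percentiles 19.6, 10.3 and 33.1 of all probe sets, so their folds rest on a dim side. Next came the protease inhibitor Serpina3n (7.39), the kinase Dclk1 (7.43), the anthrax toxin receptor gene Antxr1 (7.39), the leucine-rich proteoglycan Ogn (7.37), the semaphorin Sema3c (7.35) and the cytochrome Cyp1b1 (7.23).

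On the endothelial side Car4, a membrane-bound carbonic anhydrase of capillaries, stood at 5.91, 5.94 and 13.60, a difference of 205-fold as measured against fibroblast levels at percentiles 36.2 and 38.5. S1pr1, the main endothelial receptor for sphingosine 1-phosphate, stood at 5.55, 6.33 and 13.02. The exchange factor Rasgrp3 stood at 5.80, 6.22 and 12.98 and the glycerol channel Aqp7 at 5.59, 5.98 and 12.66. In each of these genes the fibroblast arrays sat below their medians, so these folds too rest on a dim side. The files used here give no call of signal over background, so no fold was turned into a bound. Others at the top were Ccdc85a (-7.04), the orphan receptor kinase Tie1 (-6.95), Myct1 (-6.89), the mucin-like Cd300lg (-6.87), the sialomucin Emcn (-6.75) and the adhesion receptor Adgrf5 (-6.61).

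Receptors were apart more often than genes at large, in both directions. Of 476 receptor genes on the array 274 were detected; 59 (21.5%) lay on the fibroblast side and 45 (16.4%) on the endothelial side. Among 27 receptor tyrosine kinases 11 lay on the fibroblast side and 5 on the endothelial side. Ror1, a Wnt co-receptor, stood at 9.56, 9.45 and 3.99. Axl, the receptor for Gas6, stood at 13.11, 13.18 and 8.33, and the collagen receptor Ddr2 had a difference of 4.89. These kinases, like Pdgfra, were high on both fibroblast arrays and low on the endothelial array. The endothelial kinases were those of vessel growth: Tie1 at 5.43, 6.30 and 12.82, the VEGF receptors Flt1 at 7.47, 7.67 and 13.78 and Kdr at 7.69, 7.92 and 13.54, and the VEGF-C receptor Flt4. Of 14 ephrins and ephrin receptors 5 were higher in endothelial cells, 1 in fibroblasts and 8 in neither, and after TAC 4 and 3. Efnb2, the arterial ephrin, stood at 7.44, 7.51 and 12.47, Ephb1 at 5.27, 5.27 and 9.52, and the fibroblast exception Efna5 at 9.03, 9.41 and 6.59.

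Receptors for TGF-beta, Wnt, Notch and guidance signals were divided by gene. Bmpr1a, a type I BMP receptor, stood at 11.49, 11.43 and 7.79, the co-receptor Tgfbr3 at 12.54, 12.72 and 10.28, and Tgfbr1 at 10.52, 10.58 and 8.41; these were the 3 of 13 TGF-beta and BMP receptors that were higher in fibroblasts, and 0 were higher in endothelial cells. Other detected probe sets of Bmpr1a gave differences from -0.62 to 5.04. Frizzled receptors split, with Fzd2 (10.04, 9.87 and 6.49), Fzd1 (10.91, 11.21 and 7.71) and Fzd7 (10.28, 10.50 and 7.46) on the fibroblast side. Fzd6, at 5.84, 5.51 and 10.79, was the endothelial Frizzled. In the Notch list Notch2 was the fibroblast receptor (12.51, 12.48 and 9.86), while Notch4 (7.27, 7.50 and 11.48) and the ligands Dll4 (5.94, 6.14 and 10.74), Jag2 and Dll1 were endothelial. Guidance receptors were as evenly divided, 4 and 4 of 17. The netrin receptor Unc5c stood at 8.62, 8.71 and 3.25 and the Slit receptor Robo1 at 10.04, 9.89 and 5.23. Robo4, the Robo family member of vessels, was the mirror image at 6.33, 6.06 and 12.64, and the semaphorin receptors Nrp2 (-2.77) and Plxnd1 (-2.48) were also higher in endothelial cells.

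Each cell type had its own set of G protein-coupled receptors. Of 18 detected receptors for lipids, nucleotides and proteases 6 lay on the fibroblast side and 4 on the endothelial side. The lysophosphatidic acid receptor Lpar1 stood at 11.68, 11.94 and 5.58, the prostacyclin receptor Ptgir at 10.87, 11.20 and 6.05 and the prostaglandin F receptor Ptgfr at 9.18, 8.84 and 4.46. Within 1 ligand family the cell types differed in which gene was high: S1pr2 stood at 10.28, 10.38 and 6.60, opposite to S1pr1, and Lpar6 at 8.44, 8.39 and 11.90, opposite to Lpar1. The acid-sensing receptor Gpr4 was endothelial too (7.21, 6.93 and 10.51).

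Of 21 detected receptors for peptides and amines 4 lay on each side. Fibroblasts had the higher levels of Vipr2 (9.68, 10.03 and 4.71) and Adcyap1r1 (9.44, 10.11 and 7.28), receptors of the VIP and PACAP peptides, and of the vasopressin receptor Avpr1a (11.16, 11.01 and 6.25) and the parathyroid hormone receptor Pth1r (9.84, 9.64 and 5.63). Endothelial cells had those of the apelin receptor Aplnr (7.20, 7.55 and 13.38), the endothelin receptor Ednrb (6.87, 6.03 and 11.47), Ramp3 (4.90, 5.19 and 10.93), which pairs with the calcitonin receptor-like receptor to bind adrenomedullin, and the somatostatin receptor Sstr4 (6.88, 6.86 and 10.04). The adhesion receptors divided as 3 and 4 of 14. Adgrd1 (11.54, 11.56 and 5.60), Adgrg2 (9.24, 9.70 and 3.74) and Adgrl3 (9.16, 9.21 and 4.31) were on the fibroblast side, and Adgrf5, Adgrl4 (5.88, 5.89 and 12.01) and Adgrg1 (6.42, 6.23 and 12.10) on the endothelial side.

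Scavenger and lipoprotein receptors were the most divided receptor list with at least 10 detected genes, with 9 of 20 higher in fibroblasts against 7 in endothelial cells. Besides Scara5, fibroblasts had Lrp1, a large endocytic receptor (12.80, 12.82 and 6.91), Mrc2, which takes up collagen fragments (12.12, 12.25 and 6.72), and Vldlr (10.80, 10.79 and 5.47). Endothelial cells had Gpihbp1, the anchor of lipoprotein lipase (7.25, 7.59 and 13.52), the fatty acid receptor Cd36 (8.93, 8.81 and 14.32), Stab1 (6.86, 6.42 and 11.56) and Cd93 (8.22, 8.05 and 12.72). Among 15 integrin subunits the fibroblast genes were Itgb8, whose integrin binds latent TGF-beta (7.80, 7.81 and 2.36), Itgb5 (12.46, 12.58 and 9.18), Itgb3 (10.13, 10.49 and 7.06) and Itga8 (10.23, 9.84 and 6.91). The laminin receptor subunit Itga6 (6.16, 6.55 and 12.70) and the collagen receptor subunit Itga1 (9.45, 9.35 and 12.39) were endothelial. The level of Itgb8 on the endothelial array was among the lowest of that array, so its size is that of a dim side.

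Cytokine receptors leaned to fibroblasts, with 5 of 30 interleukin and class I receptors against 0. The leptin receptor Lepr stood at 10.13, 10.07 and 5.83, the interleukin receptor Il1rl2 at 9.14, 9.31 and 6.10, and the growth hormone receptor Ghr at 12.24, 12.16 and 9.96. Of 23 TNF and Toll-like receptors 21 were not 4-fold apart, and the median difference was -0.08. The other 2, Tnfrsf10b (-2.60) and Tnfrsf22 (-2.53), were higher in endothelial cells at sham. After TAC 0 of the 23 were 4-fold apart in either direction. The chemokine receptor Cxcr4 stood at 8.19, 7.99 and 12.69, and the scavenging chemokine receptor Ackr2 at 10.75, 10.56 and 6.49. Of 28 nuclear receptors 25 were not 4-fold apart, as were 10226 of all 11825 detected genes. The other 3 were the oestrogen receptor Esr1 (8.43, 8.70 and 4.83) and Rora (11.14, 11.31 and 8.96) in fibroblasts, and Pparg, a regulator of lipid genes, in endothelial cells (6.82, 6.92 and 10.96). In the cyclic GMP system the soluble guanylate cyclase subunit Gucy1a2 was higher in fibroblasts (8.93, 9.12 and 5.38) and the natriuretic peptide receptor Npr1 in endothelial cells (6.57, 6.48 and 8.81). The other 3 of the 5 detected genes of that list were in neither group.

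**Figure D2:**
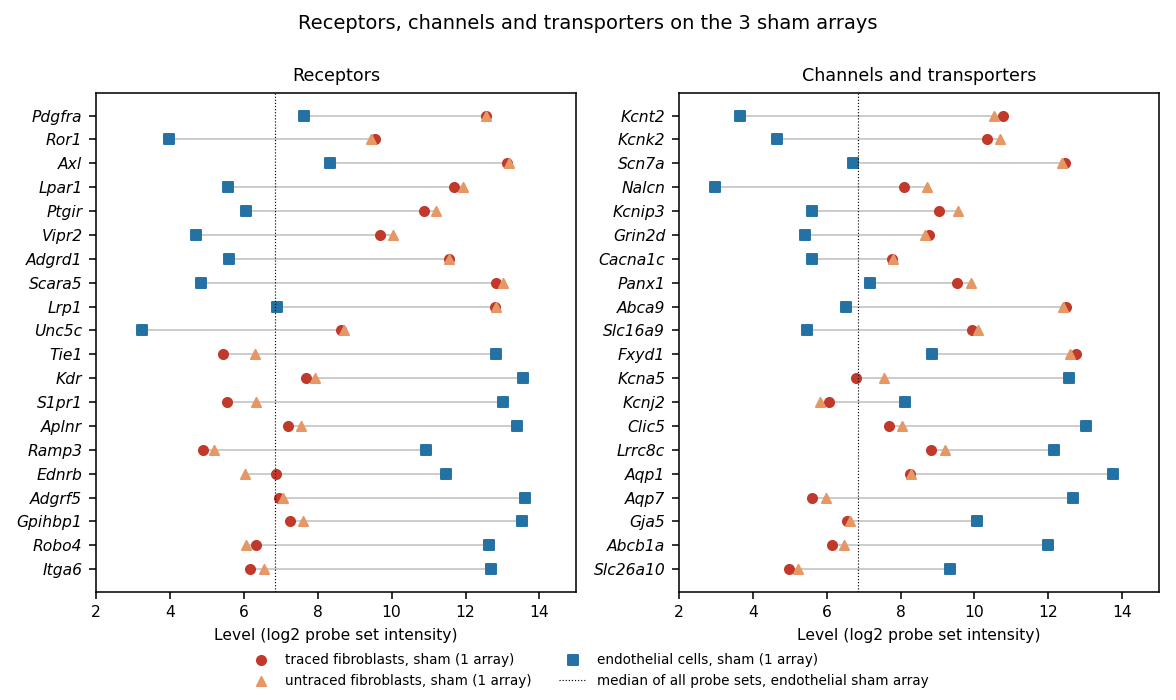
Log2 probe set intensity of receptors (left) and of channels and transporters (right) on the 3 sham arrays (1 point per array: circles traced fibroblasts, triangles untraced fibroblasts, squares endothelial cells), with the median of all probe sets of the endothelial array as a dotted line. The fibroblast points lie close together and far from the endothelial square, for example for Scara5 (12.84 and 13.01 against 4.83) and S1pr1 (5.55 and 6.33 against 13.02).

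Channels and transporters as a class stood near the share of all genes. Of 706 on the array 368 were detected, 38 (10.3%) lay on the fibroblast side and 18 (4.89%) on the endothelial side. Of 28 potassium channel genes 2 lay on each side. Kcnt2, a sodium-activated channel, stood at 10.76, 10.53 and 3.66, and Kcnk2, a mechanosensitive background channel, at 10.33, 10.70 and 4.65. The endothelial channels were Kcna5, a voltage-gated channel (6.78, 7.56 and 12.55), and Kcnj2, an inward rectifier (6.06, 5.81 and 8.11). The subunits Kcnj8 (9.85, 10.29 and 10.09) and Abcc9 (10.02, 10.17 and 10.68), which form a channel gated by ATP, were close to level.

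Sodium and calcium channels that differed were all on the fibroblast side. The sodium channel family gene Scn7a stood at 12.44, 12.38 and 6.70, the sodium leak channel Nalcn at 8.08, 8.70 and 2.98, and Scn2a at 7.20, 7.79 and 4.73, which makes 3 of 7 detected genes. Of 22 calcium channel and release channel genes the 3 were Cacna1c, the pore of the cardiac L-type channel (7.78, 7.81 and 5.60), its accessory gene Cacna2d1 (9.21, 9.37 and 6.40) and Cacng7 (9.36, 9.50 and 6.50). Glutamate and GABA receptor subunits showed the same side in 3 of 15 detected ligand-gated channel genes: Grin2d (8.78, 8.66 and 5.40), Gria3 (8.49, 8.94 and 5.93) and Gabra3 (7.34, 7.61 and 4.99). The other detected probe set of Grin2d gave a difference of -0.45. None of 15 TRP and Piezo channel genes was 4-fold apart.

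Water, chloride and junction channels included genes of both sides. Aqp1, the water channel of capillaries, stood at 8.24, 8.27 and 13.75, and with Aqp7 it made up the 2 of 4 detected aquaporins that differed. Clic5, a chloride intracellular channel protein, stood at 7.69, 8.03 and 13.02, and Lrrc8c, a subunit of volume-regulated anion channels, at 8.84, 9.21 and 12.16. The fibroblast genes among 20 chloride and volume-regulated channel genes were Clcn5, a chloride transporter (9.29, 9.27 and 6.94), and Best1, an anion channel (8.79, 8.85 and 6.66). Gja5, a connexin of arterial endothelium, stood at 6.56, 6.64 and 10.07, while the release channel Panx1 was higher in fibroblasts at 9.53, 9.91 and 7.17. Among the others, Gja1 (11.30, 11.53 and 12.95) stayed under 4-fold.

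Of 200 detected solute carriers 17 (8.5%) lay on the fibroblast side and 7 (3.5%) on the endothelial side, close to the 9.11% and 4.41% of all detected genes. The fibroblast set held Slc16a9 (9.94, 10.08 and 5.46), the large neutral amino acid carrier Slc43a1 (9.25, 9.59 and 5.40) and the glutamine carrier Slc1a5 (11.20, 11.36 and 7.40). The endothelial set held Slc26a10 (4.97, 5.24 and 9.34), Slc16a13 (5.86, 5.62 and 9.56) and the taurine carrier Slc6a6 (10.08, 10.12 and 13.07). Among 33 ABC transporters the Abca8 group stood out on the fibroblast side, with Abca9 at 12.49, 12.39 and 6.51, Abca8a at 12.83, 12.72 and 7.22, Abca8b at 10.53, 10.67 and 5.15 and Abca6 at 9.39, 9.02 and 4.49. Their sequences are closely related, and probe sets may not separate them fully. The drug efflux pump Abcb1a was the leading endothelial member at 6.14, 6.46 and 11.98. Among ion pumps Fxyd1, phospholemman, was higher in fibroblasts (12.74, 12.59 and 8.85) and Atp1b2, a sodium pump subunit, in endothelial cells (8.47, 8.96 and 11.11).

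Transcription factors differed in both directions: of 184 detected factors 34 (18.5%) lay on the fibroblast side and 23 (12.5%) on the endothelial side. The list of mesenchymal and homeobox factors held 12 fibroblast and 5 endothelial genes among 28. Besides Tcf21, fibroblasts had Twist1 (10.04, 9.98 and 4.92), Osr1 (10.50, 10.96 and 5.75) and Ebf2 (11.14, 11.16 and 6.58), which act in mesenchymal cells of the embryo. In each the fibroblast arrays were more than 4 log2 units above the endothelial array. Tcf15, a factor of capillaries, stood at 7.81, 7.86 and 12.83, Hhex at 5.13, 5.30 and 9.87 and Meox2 at 7.29, 7.79 and 11.29, all highest on the endothelial array.

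Factors of heart development lay on both sides. Tbx20 stood at 12.96, 12.81 and 6.88, Gata4 at 10.69, 10.62 and 7.12 and its cofactor Zfpm2 at 8.57, 8.87 and 4.99. Tbx18 was a fibroblast gene as well, whereas Tbx3 had a difference of -5.09. Gata2 (7.56, 7.26 and 11.02), Tal1 (4.90, 4.71 and 8.45) and Lyl1 (5.70, 5.40 and 8.05), factors of blood and vessel cells, were endothelial. Hedgehog and Wnt effectors leaned one way, with 5 of 9 detected GLI and LEF/TCF genes higher in fibroblasts against 0 in endothelial cells. Among them were Gli3 (9.60, 10.01 and 5.92), Glis2 (11.69, 11.95 and 8.14) and Gli2 (9.66, 9.70 and 7.01).

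Of 10 SOX factors 3 were higher in endothelial cells and 1 in fibroblasts. Sox17 stood at 5.05, 5.64 and 11.97, Sox18 at 7.32, 7.62 and 13.67 and Sox7 at 7.81, 7.70 and 11.42, the SOX group known from vessels. Sox9, a factor of cartilage and matrix genes, was the reverse at 10.52, 10.42 and 4.74. Of 15 ETS factors Erg (6.79, 6.52 and 11.69), Fli1 (7.69, 7.85 and 11.29) and Ets2 (10.47, 10.74 and 13.33) were higher in endothelial cells and 0 in fibroblasts. Other endothelial factors were Hoxa3 (5.18, 4.47 and 10.14), Prdm1 (4.96, 4.87 and 10.05), Tead4 (5.15, 5.22 and 9.91), Mef2c (8.77, 8.91 and 11.17) and Id1 (8.49, 8.73 and 12.20), a target of BMP signals. Fibroblasts in turn had the TEAD cofactor Vgll3 (80.6-fold), Smad3 (11.02, 11.28 and 8.20), Heyl (12.10, 12.38 and 8.53), Foxp2 (10.10, 9.90 and 6.18), Klf15 (10.33, 10.75 and 7.98) and Prdm8 (8.99, 9.14 and 4.14). In the TEAD and PRDM families, then, different members were high in the 2 cell types.

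**Figure D3:**
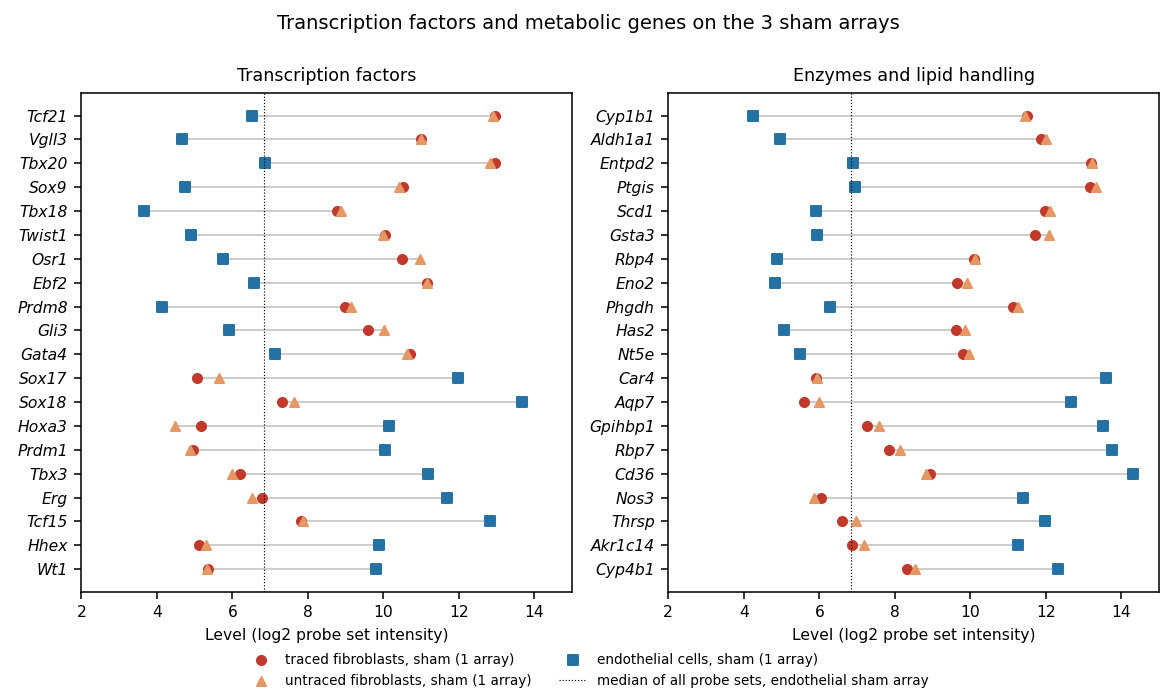
Log2 probe set intensity of transcription factors (left) and of enzymes and lipid handling genes (right) on the 3 sham arrays (1 point per array: circles traced fibroblasts, triangles untraced fibroblasts, squares endothelial cells), with the median of all probe sets of the endothelial array as a dotted line. Tcf21 (12.95 and 12.91 against 6.52) and Sox17 (5.05 and 5.64 against 11.97) show the opposite patterns, and Car4 (5.91 and 5.94 against 13.60) the widest gap among the enzymes plotted.

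Erg, Fli1 and Ets2 were the ETS factors higher in endothelial cells, out of 15 detected. The 250 bases upstream of each listed start of a gene were searched on both strands, in the RefSeq promoter table for GRCm38.p6. A match at any start counted for the gene, so genes with several starts had more sequence searched. The ETS-type ACAGGAA, 1 of 7 motifs searched, is given first. Its letters were found for 12.5% of the 391 endothelial genes with an entry, 6.51% of the 814 fibroblast genes, 6.85% of the 9562 detected genes and 8.13% of all 27025 genes. Among the 12 genes with the largest endothelial differences 4 of 8 with an entry held it, and among the 12 of the fibroblast side 1 of 7. These matches are shown because they belong to the genes that separate the cell types most. Each run reads along the gene's strand with the match in capitals, and TTCCTGT is the same motif on the opposite strand.
Rasgrp3, chr17:75435762-75435828, plus strand: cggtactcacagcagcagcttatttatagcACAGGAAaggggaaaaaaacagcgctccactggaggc
Adgrf5, chr17:43360240-43360306, plus strand: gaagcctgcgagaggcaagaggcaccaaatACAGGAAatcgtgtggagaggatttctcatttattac
Tie1, chr4:118490022-118490088, minus strand: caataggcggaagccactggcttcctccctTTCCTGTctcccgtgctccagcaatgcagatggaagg
Emcn, chr3:137340875-137340941, plus strand: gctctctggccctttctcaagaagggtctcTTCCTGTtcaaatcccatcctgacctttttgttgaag
Emcn, chr3:137340981-137341047, plus strand: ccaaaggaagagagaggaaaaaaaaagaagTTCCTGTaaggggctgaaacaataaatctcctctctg
Efemp1, chr11:28853015-28853081, plus strand: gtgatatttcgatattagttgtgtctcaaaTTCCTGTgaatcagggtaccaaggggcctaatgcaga

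The match in Rasgrp3 starts 113 bases before a listed start of the gene, that in Adgrf5 161 and that in Tie1 209. Those in Emcn start 173 and 67 bases before, and that in the fibroblast gene Efemp1 160. The other motifs searched gave smaller gaps between the gene sets. For all 7 motifs the share was higher among endothelial genes than among detected genes. The letters AGATAA, read by GATA factors, were found for 10.7% of endothelial and 6.51% of fibroblast genes against 6.92% of detected genes. The E-box CAGCTG, which TCF21 can bind, was found for 19.9% and 18.6% against 14.6%, TEAD (GGAATG) for 17.4% and 16.2% against 12.9%, AP-1 (TGANTCA) for 8.18% and 8.35% against 5.35%, and SOX (ACAATG) for 11.5% and 7.99% against 7.59%. The composite of ETS and forkhead letters AANAGGAA, which holds ACAGGAA where N is C, was found for 9.72% and 6.27% against 8.13%. A match is a run of letters and not a bound site.

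Secreted proteins were the class most tilted to fibroblasts. Of 532 on the array 306 were detected, and 148 (48.4%) lay on the fibroblast side and 18 (5.88%) on the endothelial side. Collagens led, with 20 of 27 higher in fibroblasts, 0 in endothelial cells and a median difference of 4.44. Col6a3 stood at 12.40, 12.39 and 5.43, Col14a1 stood at 10.74, 10.81 and 4.05, the fibrillar collagen Col5a2 differed by 6.13 and the main fibrillar gene Col1a1 stood at 13.74, 13.58 and 8.58. Basement membrane chains were different: Col4a1 (-0.60), Col4a2 (-0.63) and Col18a1 (0.67), singled out here after their values were seen, were not 4-fold apart, and of 13 laminins, nidogens and perlecan only Lama2 (13.12, 13.35 and 7.13) was.

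The other matrix families followed the fibrillar collagens. Of 17 elastic fibre and microfibril genes 14 were higher in fibroblasts, led by Efemp1, Mfap4 (12.53, 12.46 and 5.47) and Emilin2 (11.28, 11.32 and 4.33). Of 22 matricellular genes 16 were, with Tnxb (13.19, 13.09 and 7.27), Ccn5 (11.53, 11.57 and 5.74) and Spon1 (12.80, 12.95 and 7.10) after Smoc2, and of 11 small leucine-rich proteoglycans 8 were, with Ogn, Lum and Omd at differences of 7.37, 6.66 and 5.52. In all 3 families 0 genes were higher in endothelial cells. Proteases and their inhibitors held exceptions. Mmp2, a gelatinase, stood at 13.39, 13.47 and 6.49 and the inhibitor Timp1 at 11.68, 11.46 and 4.65, while the inhibitor Timp4 stood at 6.67, 6.42 and 12.88 and the protease Adamts9 at 7.11, 8.24 and 11.29.

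Growth factor families differed in their sides. Of 18 VEGFs, PDGFs and angiopoietins 3 were fibroblast genes and 5 endothelial, of 16 FGFs, HGF and EGF ligands 7 and 0, and of 12 IGFs and their binding proteins 6 and 0. Of 23 ligands and antagonists of the TGF-beta and BMP family 16 lay on the fibroblast side and 0 on the endothelial side. Bmper, a BMP binding protein, stood at 10.60, 10.71 and 4.34, Inhba, the activin subunit, at 9.96, 10.51 and 4.70 and Gdf10 at 9.32, 9.86 and 5.43. Secreted Wnt inhibitors showed the same side in 6 of 8 genes, with Frzb (11.38, 11.21 and 4.30), Sfrp1 (12.30, 12.48 and 5.42) and Dkk3 (11.78, 11.52 and 6.37). The Wnt ligands Wnt5a (8.62, 8.49 and 4.38), a ligand of Ror1, and Wnt9a (10.63, 10.70 and 6.25) were higher in fibroblasts too. Fibroblast growth factors Fgf18 (10.24, 10.13 and 4.71), Fgf2 (10.41, 10.31 and 6.96) and Fgf7 (9.21, 8.94 and 6.18), the insulin-like factor Igf1 (12.50, 12.61 and 8.30) and its binding protein Igfbp6 (12.44, 12.83 and 6.53) were on that side as well.

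For some ligands the named receptor stood high in the other cell type, and for others in the same one or in both. Pdgfb stood at 6.80, 6.67 and 12.06, endothelial, and its receptor Pdgfrb at 12.12, 12.10 and 10.10. Angpt1, which activates Tek, a receptor bright on all 3 arrays, was higher in fibroblasts (9.06, 8.92 and 5.74), and its counterpart Angpt2 in endothelial cells (5.78, 6.11 and 9.24). Pgf, a ligand of Flt1, was a fibroblast gene at 11.21, 11.58 and 7.79. Slit2 (9.48, 10.38 and 4.67) and Slit3 (10.61, 10.99 and 5.56) were fibroblast genes, as was their receptor Robo1, while Robo4 was endothelial. Apelin, Apln, stood at 3.86, 4.76 and 7.90, on the same side as its receptor Aplnr. Kitl, the stem cell factor, was endothelial at 8.10, 8.34 and 12.33, and so were the semaphorins Sema7a (7.25, 6.89 and 12.19) and Sema3g (8.31, 7.93 and 11.65).

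Among chemokines and cytokines more genes were 4-fold higher in fibroblasts than in endothelial cells at sham, and many were in neither. Cxcl14 stood at 12.80, 12.84 and 6.55, the eotaxin Ccl11 at 11.44, 11.14 and 5.15 and the monocyte chemokine Ccl7 at 11.79, 11.56 and 5.72, and 6 of 15 detected chemokines were on this side against 1, the interferon-induced Cxcl9 (4.25, 4.33 and 8.72). Of 17 interleukins and other cytokines 8 lay on the fibroblast side and 2 on the endothelial side. The alarmin Il33 stood at 10.44, 10.58 and 5.43, Il17d at 10.13, 10.21 and 5.06, Tslp at 8.88, 8.63 and 4.59, and the endothelial death ligand Tnfsf10 at 5.50, 6.02 and 11.22. Of 14 complement components and regulators 4 were fibroblast genes, 9 were in neither group and 1, the complement inhibitor Cd59a (7.72, 7.22 and 10.46), was endothelial. Complement genes C1ra (11.97, 11.93 and 6.55) and C1s1 (12.11, 12.24 and 7.63), which form the first protease complex of the classical pathway, and their inhibitor Serping1 (13.62, 13.64 and 8.47) were among the fibroblast genes. Of the clotting genes, tissue factor F3 was in fibroblasts (9.46, 9.75 and 3.95) and von Willebrand factor Vwf in endothelial cells (6.84, 6.69 and 10.29). Of 14 detected neuropeptides, vasoactive peptides and neurotrophins 5 lay on the fibroblast side, 1 on the endothelial side and 8 on neither. Proenkephalin Penk stood at 12.62, 12.65 and 5.78 and neuromedin Nmb at 12.71, 13.06 and 7.51, against neurotensin Nts at 5.01, 5.30 and 10.76.

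**Figure D4:**
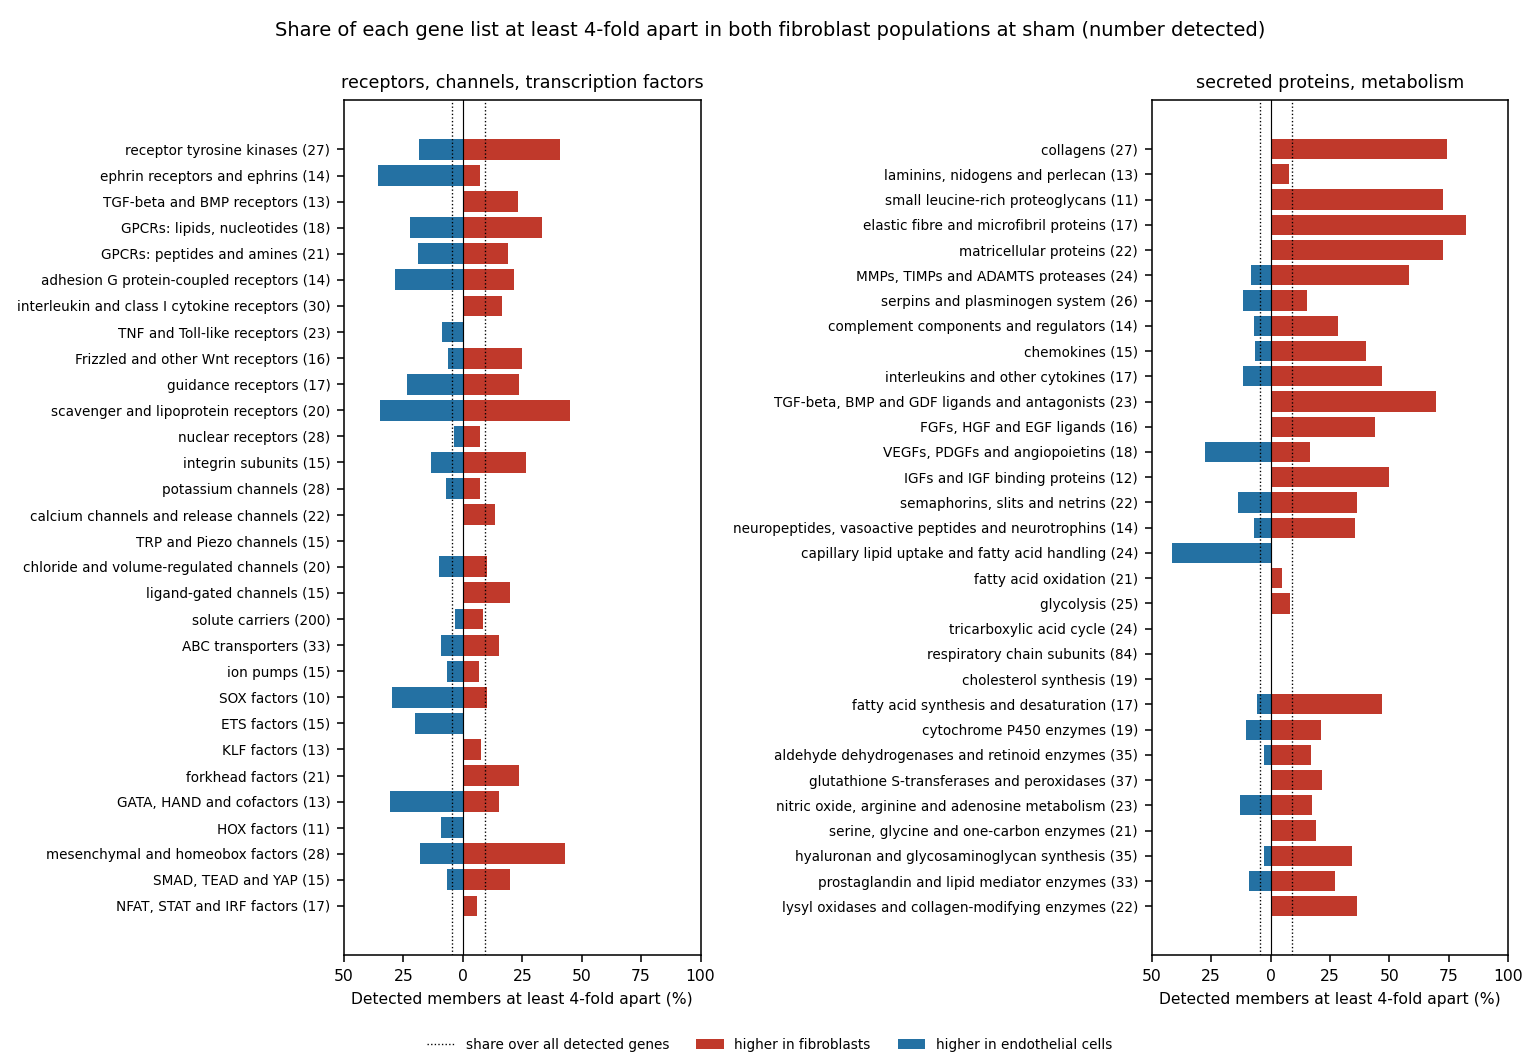
Share of the detected genes of each functional list with at least 10 detected genes (number in parentheses) that were at least 4-fold higher in both fibroblast populations (bars to the right) or in endothelial cells (bars to the left) at sham, in percent, with the shares over all detected genes (9.11% and 4.41%) as dotted lines. Collagens and elastic fibre genes reach far to the right, capillary lipid uptake far to the left, and the respiratory chain, the tricarboxylic acid cycle and cholesterol synthesis have no bar.

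Few genes of central energy metabolism were 4-fold apart, and more were in lists such as fatty acid synthesis, glutathione and glycan enzymes. Of 598 metabolic genes 444 were detected, 66 (14.9%) lay on the fibroblast side and 24 (5.41%) on the endothelial side. Of 84 subunits of the respiratory chain 0 were 4-fold apart in either direction, with a median difference of 0.27, close to that of all genes. The same count of 0 held for 24 genes of the tricarboxylic acid cycle (0.58) and 19 of cholesterol synthesis (0.54). Below 4-fold, differences favoured fibroblasts in 60 respiratory chain, 23 tricarboxylic acid cycle and 16 cholesterol synthesis genes. Over all detected genes 7471 of 11825 did. In glycolysis 2 of 25 genes differed, the enolase Eno2 (9.65, 9.90 and 4.82) and the hexokinase Hk2 (9.41, 9.72 and 6.75), both higher in fibroblasts.

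Fatty acid genes lay on both sides. Of 24 genes of capillary lipid uptake and fatty acid handling 10 lay on the endothelial side and 0 on the other, among them Gpihbp1, Cd36, Aqp7 and Tcf15. After TAC the counts were 8 and 0. The list holds genes picked as capillary genes, so its side follows partly from its membership. Genes that make fatty acids leaned the other way at sham, with 8 of 17 higher in fibroblasts against 1 in endothelial cells. After TAC the counts were 3 and 1. The desaturase Scd1 stood at 11.97, 12.12 and 5.92, malic enzyme Me1, a source of NADPH, at 9.47, 9.61 and 5.28, and fatty acid synthase Fasn at 10.27, 10.25 and 7.10. Thrsp, a small protein linked to lipid synthesis, was the exception at 6.61, 6.97 and 11.96. Of 21 genes of fatty acid oxidation only Cpt1c (9.60, 9.36 and 6.11) was 4-fold apart.

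Most retinoid, prostanoid and glutathione enzymes were not 4-fold apart. Of 35 aldehyde dehydrogenases and retinoid enzymes 6 were fibroblast genes and 1 was endothelial, and of 33 prostaglandin and lipid mediator enzymes 9 and 3. The retinal dehydrogenases Aldh1a1 (126-fold) and Aldh1a2 and the carrier Rbp4 (10.10, 10.13 and 4.87) were higher in fibroblasts, while Rbp7, a cellular retinol binding protein (7.84, 8.13 and 13.75), and the retinoic acid degrading Cyp26b1 (6.47, 6.09 and 10.19) were higher in endothelial cells. For prostacyclin the phospholipase Pla2g4a (10.00, 10.17 and 3.99), the cyclooxygenase Ptgs2 (9.15, 9.03 and 3.57), the synthase Ptgis (13.17, 13.33 and 6.96) and the receptor Ptgir were all on the fibroblast side. Endothelial lipid mediator genes were Alox12 (5.95, 6.15 and 10.04) and Akr1c14 (6.87, 7.18 and 11.26). The glutathione genes Gsta3 (11.71, 12.08 and 5.94) and Gpx3 (14.16, 14.17 and 9.43) were higher in fibroblasts, as were 8 of 37 in that list against 0.

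Of 23 genes of nitric oxide, arginine and adenosine metabolism 4 were fibroblast genes, 3 endothelial and 16 neither. Nos3, the endothelial synthase, stood at 6.06, 5.85 and 11.40, the inducible Nos2 at 6.15, 5.78 and 9.42 and Gch1, which makes the cofactor of these synthases, at 6.62, 6.82 and 9.68, the endothelial members. Entpd2, which cleaves extracellular ATP, stood at 13.20, 13.22 and 6.89, and Nt5e, which releases adenosine, at 9.80, 9.96 and 5.48. Other probe sets of Nt5e gave differences down to -0.08. The serine synthesis gene Phgdh stood at 11.14, 11.26 and 6.29 and Psat1 at 9.78, 10.02 and 7.16. Glycan synthesis showed 12 of 35 genes in fibroblasts against 1, with hyaluronan synthase Has2 at 9.63, 9.87 and 5.06 and dermatan sulfate epimerase Dse at 10.04, 10.15 and 4.23, and the exception Chst15 at 6.87, 7.45 and 11.09. Of 22 enzymes that modify or crosslink collagen 8 lay on the fibroblast side and 0 on the endothelial side, among them Loxl1 (13.49, 13.48 and 6.37) and Pcolce2 (12.60, 12.64 and 6.36).

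Across all 11825 detected genes, 87 had traced and untraced sham levels at least 2-fold apart. The 1599 genes counted in either direction had to differ in both populations, so agreement within them is partly set by the rule. Among the 1599, 17 had traced and untraced levels at least 2-fold apart, for example Foxd1 (6.11, 7.53 and 3.82) and Adamts9. A further 337 genes reached 4-fold in 1 population only. The lower side lay under the 25th percentile of its array for 254 (23.6%) of the fibroblast and 69 (13.2%) of the endothelial genes, and under the 10th percentile of its array for 12 of the genes named here, whose folds are the least certain: Adgrg2, Apln, Ccdc85a, Dclk1, Foxd1, Itgb8, Kcnt2, Nalcn, Ptgs2, Tbx18, Unc5c and Wif1. Among all detected genes 5 were at least 4-fold apart between the fibroblast populations.

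The arrays after TAC give the same contrast from arrays that the sham comparison does not use. The untraced fibroblast TAC array stood apart in RNA measures, with 18S rRNA at 12.04 against 14.11 to 14.64 on the others and a Gapdh 3'/5' log2 ratio of 2.10 against 1.12 to 1.36. Across 11825 genes the sham and TAC differences correlated at r = 0.904 (Spearman rho 0.849), as a description over genes that are not independent. Of the 1077 fibroblast genes 1068 kept their sign in both populations after TAC and 672 (62.4%) were again 4-fold higher. Of the 522 endothelial genes 520 kept their sign and 384 (73.6%) were again 4-fold higher. With the traced array alone after TAC, r was 0.897 and 708 (65.7%) and 401 (76.8%) were again 4-fold higher. By the rule on both populations, 756 of all 11825 detected genes were higher in fibroblasts after TAC and 445 in endothelial cells. The median difference of the fibroblast genes was 3.42 at sham and 2.48 after TAC, and that of the endothelial genes -3.28 and -2.95. The genes were chosen by their sham difference, so the smaller medians after TAC are given as a description only.

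Some fibroblast genes stood well above their sham level on the endothelial TAC array. For 206 of the 1077 the endothelial level was at least 4-fold higher after TAC, among them Timp1 (4.65 at sham, 10.57 after TAC), Serpina3n (4.06 and 9.32), Mfap5 (6.87 and 12.13) and Col1a1 (8.58 and 13.01). The mean difference of Col1a1 was accordingly 5.08 at sham and 0.95 after TAC, that of Mfap5 6.66 and 1.66 and that of Postn 5.50 and 1.07. Summed fibroblast marker intensity on the endothelial arrays was 24640 at sham and 81772 after TAC, against 201238 to 214012 on the fibroblast arrays. The part of fibroblast RNA in those endothelial TAC levels was not tested. The 1077 genes were chosen partly by a low endothelial sham level, which is also the level the rise is counted from. The share over all detected genes was not counted, so the 206 are a description only. Some other genes, picked here for their similar values, held their difference: F3 had 5.66 at sham and 4.74 after TAC, Il33 5.08 and 4.48, Unc5c 5.41 and 4.90, Wif1 4.18 and 4.33, Fzd2 3.46 and 3.44 and Itgb5 3.34 and 3.34. How many genes did so was not counted. Unc5c and Wif1 are among the genes whose lower side at sham lay under the 10th percentile. Of the endothelial genes 8 were at least 4-fold lower on the endothelial TAC array, among them Cyp26b1 (10.19 at sham, 7.23 after TAC) and phospholamban, Pln (11.26 and 9.19), a cardiomyocyte marker. The endothelial genes were chosen partly by a high endothelial sham level. The share over all detected genes was not counted for this fall either, so the 8 are a description only.

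**Figure D5:**
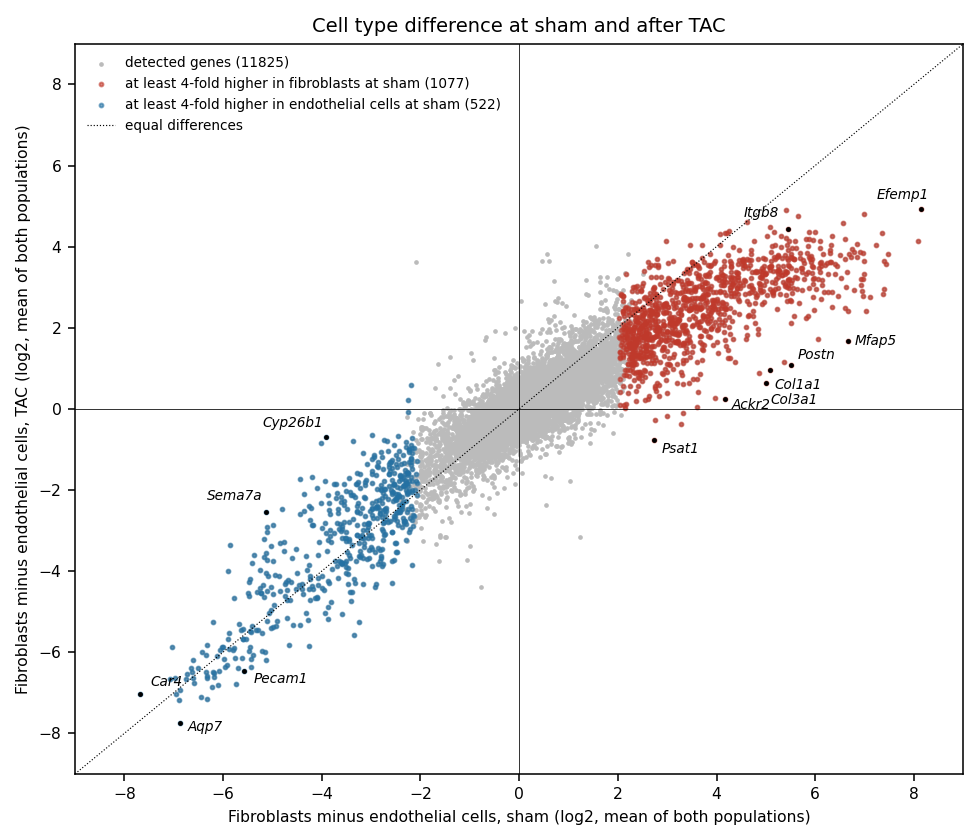
Mean fibroblast minus endothelial difference (log2) at sham on the horizontal axis and after TAC on the vertical axis for 11825 detected genes, with genes at least 4-fold higher at sham in fibroblasts (1077) or endothelial cells (522) coloured and the line of equal differences dotted. Endothelial genes such as Car4 lie near the line, and fibroblast genes such as Col1a1 (5.08 and 0.95) and Mfap5 (6.66 and 1.66) lie well under it.

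The only test run takes both surgeries as 2 values per cell type (limma, Benjamini-Hochberg adjusted p under 0.05 and at least 2-fold), so its spread is the difference between surgeries and it is not a test of the sham comparison. It called 1415 (11.5%) of 12257 genes higher in fibroblasts and 797 (6.5%) higher in endothelial cells. These counts moved with the design, to 2298 and 1114 with surgery as a block, 321 and 310 without the fibroblast sham value, 384 and 336 without the fibroblast TAC value and 685 and 472 without the endothelial sham value. In the fit on all 4 values, of the sham genes 806 (74.8%) on the fibroblast side and 468 (89.7%) on the endothelial side passed it. The sham values that chose these genes are among the values of the fit, so passing it is no separate support for them. By class, the genes that were 4-fold apart at sham and passed were 52 and 42 for receptors, 35 and 18 for channels and transporters, 28 and 23 for transcription factors, 81 and 16 for secreted proteins and 46 and 21 for metabolism, fibroblast genes first. Of the 20 collagens 7 passed, and Tbx20, Sox9, Frzb, Ptgs2, Pgf and Psat1 did not pass. Pdgfra, Tcf21, Pecam1, Cdh5, Scara5, Efemp1, Car4, S1pr1, Kcnt2, Lpar1, Sox17, Penk and Aldh1a1 did.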

How the data were processed

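RNA of 6 sorted cell samples was read on Affymetrix Mouse430_2 arrays, with 1 array per group. RMA is named in the submitters' processing notes, and the deposited values are probe set intensity on a linear scale; log2 was taken here. Of 45101 probe sets 34958 carry 1 gene symbol in the platform annotation. Each gene was read from its brightest probe set, by mean over the 6 arrays. Detection required a level above the array's median on at least 1 sham array. The 4-fold rule had to hold for both fibroblast populations. Named genes were drawn mostly from the 12 largest each way, up to 4 per list and direction, members of lists of up to 8 detected genes, and the cell markers. Not every such gene is named, and level members of some small lists are left out. Comparisons, members and lists were chosen with earlier results of these data known. The fit over both surgeries used limma 3.58.1 in R 4.3.3 on 2 values per cell type, and other steps used Python 3.11.15. Tested on simulated data for that fit over 12257 genes, it called 2 of 50 genes changed by log2 1, 26 of 50 at 2, 34 of 50 at 4, 44 of 50 at 6 and 2 of 12057 unchanged genes. The number of arrays limits the precision. Alternatives varied the probe set rule, detection, pseudocount, scaling and fold.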

Additional observations from a re-analysis of the deposited data

Results flagged for a closer look

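The difference of Psat1, an enzyme of serine synthesis, had opposite signs in the 2 surgeries: fibroblasts were higher by 2.74 at sham and lower after TAC, at -0.78, in both populations. Col18a1, a basement membrane collagen, did the same with 0.67 at sham and -0.45 after TAC. With 1 array per cell type and surgery the change of sign was not tested.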

How the results depend on the processing

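Of the 1599 genes that were 4-fold apart, between 1248 (detection above the upper quartile) and 1599 (no detection filter) were shared with each of 7 other settings of probe set, detection, pseudocount and scaling, and 0 had the opposite direction. A 2-fold rule gave 2487 fibroblast and 1086 endothelial genes and an 8-fold rule 629 and 276. Detection above the upper quartile left 25 fibroblast channels and transporters in place of 38. The median difference of all detected genes was 0.33 with arrays centred and 0.16 after quantile normalization. Of the 140 named 4-fold genes with several detected probe sets 32 had probe set differences more than 2 log2 units apart, and in 3 (Bmpr1a, Grin2d and Nt5e) they differed in sign. No paired analysis was possible because each sham group has 1 array. In the fit over both surgeries, surgery as a block, which is the pairing of its values, gave 2298 fibroblast and 1114 endothelial genes. Leaving out 1 of the 4 values gave 321 to 1715 fibroblast and 310 to 757 endothelial genes: 321 and 310 without the fibroblast sham value, 384 and 336 without the fibroblast TAC value, 685 and 472 without the endothelial sham value. With the traced array alone after TAC, an alternative chosen after seeing the data, the counts were 1395 and 793. Of the sham genes 803 and 463 passed, again with the sham values that chose them in the fit. In the fits that leave out a value, the lone value is assumed to vary like the other cell type. Signal over background limits genes dim on 1 side.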

Other observations

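Of 9160 probe sets without a gene name in the annotation used here 3000 were detected at sham. Among these 148 were at least 4-fold higher in both fibroblast populations and 296 in endothelial cells.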
